A study of Caenorhabditis elegans with 2 samples.

Results

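The nuclear small nucleolar RNA (snoRNA) genes of the nematode Caenorhabditis elegans were examined as binding sites of the protein MEL-28. Every nuclear gene of biotype snoRNA in the Ensembl WBcel235 annotation was taken, with its gene body and 500 bp on each side as its locus, whether or not it held a peak. This gave 346 loci among 46890 nuclear genes of every biotype. The genome build is ce11, the same assembly as WBcel235. The study was a chromatin immunoprecipitation sequencing (ChIP-seq) experiment in which DNA bound by tagged MEL-28 was recovered and sequenced. The experiment's description names an antibody against GFP, whereas the antibody field of both samples reads mel-28, the target gene. It had 1 group with 2 biological replicates and no second condition, stage or genotype. The worms were strain OP646, with the allele unc-119(tm4063) III and the transgene wgIs646, which adds a stably expressed MEL-28 with a GFP-FLAG tag at its C-terminal end. The labels used here do not name the promoter that drives it. They were young adults of mixed sex, collected whole 64 hours after synchronisation as starved L1 larvae, and their chromatin was sonicated. Because whole animals of mixed sex were pooled, a locus bound in a few cells and a locus weakly bound in many cannot be told apart.

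snoRNAs are short nuclear RNAs that guide chemical modification of ribosomal and spliceosomal RNAs: box C/D snoRNAs guide ribose methylation and H/ACA snoRNAs guide pseudouridylation. Some are cut out of the introns of host genes, and others are transcribed from promoters of their own by RNA polymerase II or III; polymerase III genes often carry the promoter boxes A and B, bound by the factor TFIIIC, and end at a run of T. MEL-28, the worm relative of vertebrate ELYS, is a chromatin-binding protein of the nuclear pore and the kinetochore.

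The sequences of 4 loci with strong peaks and a pair of boxes resembling boxes A and B just upstream of the annotated snoRNA are shown first. The letters of the boxes were written after the upstream sequences of loci with strong peaks had been read. Their recurrence among such loci was therefore in part set by that choice. Each sequence runs from 120 bases upstream of the gene to 30 bases after its 3' end on the gene strand, read from the RefSeq WBcel235 genome. Capitals mark box A (TGGNNNAG), box B (GTTCNANNC) and the first run of at least 5 T after the gene. All 4 have such a T run, as did 9 of the 13 loci with the boxes in the reproducible list described below. T19B4.8, not shown, has the boxes and a stronger peak than Y75B12B.12 but no T run. C51F7.3 is at chrV:12303588-12303813, plus strand, in an intron of frm-7; W03C9.9 is at chrII:11960778-11960989, plus strand, between genes; T03F7.8 is at chrV:11314138-11314362, plus strand, in an intron of cutl-18 on the opposite strand; Y75B12B.12 is at chrV:15190946-15191213, minus strand, between genes.
C51F7.3: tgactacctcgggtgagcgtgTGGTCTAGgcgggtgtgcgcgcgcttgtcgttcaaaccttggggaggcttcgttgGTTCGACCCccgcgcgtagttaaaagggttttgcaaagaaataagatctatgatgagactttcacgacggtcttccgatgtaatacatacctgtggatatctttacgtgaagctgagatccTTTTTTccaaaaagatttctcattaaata
W03C9.9: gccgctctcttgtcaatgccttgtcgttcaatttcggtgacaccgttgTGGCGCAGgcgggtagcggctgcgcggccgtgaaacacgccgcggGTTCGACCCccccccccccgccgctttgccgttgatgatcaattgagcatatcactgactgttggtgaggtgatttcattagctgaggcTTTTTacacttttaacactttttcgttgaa
T03F7.8: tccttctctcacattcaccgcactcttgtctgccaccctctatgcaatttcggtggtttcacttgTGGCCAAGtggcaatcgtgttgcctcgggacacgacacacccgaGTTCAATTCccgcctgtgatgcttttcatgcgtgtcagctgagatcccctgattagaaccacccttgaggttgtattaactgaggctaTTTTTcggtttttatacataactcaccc
Y75B12B.12: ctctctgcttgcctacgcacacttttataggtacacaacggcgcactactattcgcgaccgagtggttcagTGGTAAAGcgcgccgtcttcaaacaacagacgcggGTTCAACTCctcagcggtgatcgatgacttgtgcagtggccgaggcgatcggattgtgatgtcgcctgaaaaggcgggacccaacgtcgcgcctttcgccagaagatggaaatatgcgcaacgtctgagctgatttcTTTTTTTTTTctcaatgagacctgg

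A further locus, F30H5.4, is shown from 120 bases upstream of the gene to its first 20 bases, at chrIII:502684-502823, plus strand, as a further example of the same boxes at an intergenic locus.
F30H5.4: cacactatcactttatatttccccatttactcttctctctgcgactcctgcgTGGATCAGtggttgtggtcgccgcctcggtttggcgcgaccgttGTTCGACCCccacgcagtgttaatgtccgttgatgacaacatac

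A second arrangement is shown at ZK994.7, the snoRNA locus with the strongest peak, and at Y53F4B.47, over the same extent, and at C16D9.11 from 120 bases upstream to the first 20 bases of the gene. Here capitals mark the 2 parts of a split element, AACCCG followed after 5 bases by TGTC. ZK994.7 is at chrV:8500459-8500675, plus strand, in an intron of pxn-1; Y53F4B.47 is at chrII:15025784-15026013, minus strand, between genes; C16D9.11 is at chrV:8228950-8229089, minus strand, in an intron of rol-3.
ZK994.7: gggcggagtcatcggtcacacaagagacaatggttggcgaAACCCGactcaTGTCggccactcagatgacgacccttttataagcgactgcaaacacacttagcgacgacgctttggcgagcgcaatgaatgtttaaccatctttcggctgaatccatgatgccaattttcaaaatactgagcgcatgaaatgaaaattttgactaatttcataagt
Y53F4B.47: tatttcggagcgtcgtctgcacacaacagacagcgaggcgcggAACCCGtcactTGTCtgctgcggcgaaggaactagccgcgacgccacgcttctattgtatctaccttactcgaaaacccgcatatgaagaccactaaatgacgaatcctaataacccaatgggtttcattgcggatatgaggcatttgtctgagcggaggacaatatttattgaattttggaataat
C16D9.11: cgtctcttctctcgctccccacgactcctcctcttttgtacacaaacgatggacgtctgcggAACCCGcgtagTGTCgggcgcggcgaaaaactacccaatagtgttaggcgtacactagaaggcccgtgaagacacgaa

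MEL-28 summits were found at snoRNA loci in a larger share than in windows of the same length over the genome. A summit is the base of highest signal in a peak, and 4 lists of peaks were used: replicate 1, replicate 2, the list from both replicates pooled, and the authors' reproducible list, derived from the other lists by a threshold on the irreproducible discovery rate (IDR), a measure of agreement between ranked lists. The replicate and pooled lists were deposited as peaks together with background, to serve as input for that step, so a summit there can be weak. Of the 346 loci, 183 held a pooled summit, 52.9% with an exact 95% interval of 47.5% to 58.2%, against 16.9% of end-to-end genome windows of 1130 bp, the median locus width. The reproducible list put a summit at 43 loci, 12.4% with an exact interval of 9.14% to 16.4%, against 0.403% of the same windows. Windows of that width running from 500 bp upstream of the 5' end of each nuclear gene held a pooled summit in 20.4% of cases and a reproducible summit in 0.962%. The intervals cover the counting of loci only, and loci that share a peak are not independent.

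The replicates each put a summit at more than 180 loci. Replicate 1 had a summit at 202 loci (58.4%), against 23.8% of genome windows, and replicate 2 at 188 loci (54.3%), against 19.0%. Both lists had a summit at 145 loci (41.9%), against 8.63% of windows. Of the others, 100 loci had a summit in 1 replicate list only and 101 in neither, and 92 loci had none in any of the lists. The 43 reproducible loci rested on 41 distinct summits, because C51F7.3 and C51F7.4 shared a peak, as did C27H5.9 and C27H5.10.

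**Figure D1:**
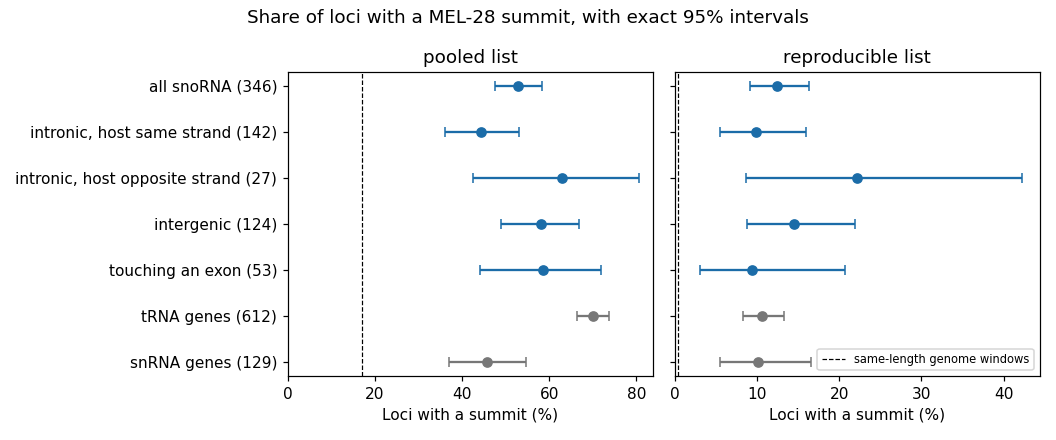
Share of loci with a MEL-28 summit (x axis, percent) in the pooled list (left) and the reproducible list (right), by class of snoRNA locus (blue) and for tRNA and snRNA genes (grey), with exact 95% intervals that cover the counting of loci only. Dashed lines mark the share of same-length genome windows, 16.9% and 0.403%, and every class of snoRNA locus lies above its line.

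snoRNA loci held some of the strongest peaks of the whole experiment. Values below are the authors' signal values, whose scale is not stated, so they are compared within a list only. ZK994.7, in an intron of pxn-1, which codes for a peroxidasin, had the highest signal of all 17005 nuclear pooled peaks, at 412. Its values were 200.3 in replicate 1 and 206 in replicate 2. C51F7.3, in an intron of the FERM domain gene frm-7, ranked 4 among pooled peaks with a signal of 329.6, and had 166 in replicate 1 and 173 in replicate 2. The neighbouring snoRNA gene C51F7.4, which touches a frm-7 exon, lies just upstream of C51F7.3, so the same summit and values count for it as well. Box A and box B printed above for C51F7.3, starting at −99 and −44 bases from that gene's 5' end, fall within the annotated body of C51F7.4. Of the 43 reproducible loci, 5 lay at the 20 strongest nuclear reproducible peaks, a count that includes C51F7.4 with the peak it shares, and 32 of the 43 loci lay in the stronger 185 of the 369 nuclear reproducible peaks.

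The next loci were intergenic or lay in introns on the opposite strand. W03C9.9, between genes, had a pooled signal of 242, with 131 in replicate 1 and 109 in replicate 2. T03F7.8, in an intron of the cuticulin-like gene cutl-18 but on the other strand, had a pooled signal of 235, with 138 and 112. H09I01.2, also between genes, had a pooled signal of 222, with 100.2 in replicate 1 and 117 in replicate 2. In each of these the pooled summit lay −88 to −78 bp from the snoRNA 5' end, with negative positions upstream.

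Below 200 the named loci lay close to each other in signal. Y53F4B.47 had a pooled signal of 181, with 90.9 in replicate 1 and 106 in replicate 2. T19B4.8 had 175 pooled, with 73.6 and 95.1. Y75B12B.12 had 173 pooled, with 87.8 in each replicate. These 3 loci are intergenic, and their order in the pooled list was not the order in replicate 1, where T19B4.8 was the lowest of them. Y37E3.20, in an intron of pcyt-2.1, which codes for an enzyme of phospholipid synthesis, had 165 pooled, with 90.8 and 74.0. F59C6.15, between genes, had 162 pooled, with 107 and 78.4. T06C12.16, between genes, had 161 pooled, with 100.4 and 66.4. F39B2.14, which touches an exon of tmem-107, a gene of the ciliary transition zone, had 161 pooled, with 67.7 and 68.5. F30H5.4, between genes, had 158 pooled, with 92.8 and 63.5. Y53F4B.48, between genes, had 157 pooled, with 80.7 and 84.4. C16D9.11, in an intron of the receptor tyrosine kinase gene rol-3, had 147 pooled, with 68.4 and 82.9. The order of these 10 loci differed between the pooled list and each replicate list.

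The lowest of the reproducible loci and the highest of the others lay near each other. F47G4.9, between genes, was the lowest of the 43, with a pooled signal of 97.1, and 66.1 in replicate 1 and 40.7 in replicate 2. W01C9.6, touching an exon of the globin gene glb-27 on the opposite strand, had 99.7 pooled, with 52.3 and 55.9. Y24D9A.9, in an intron of the ribosomal protein gene rpl-7A, had 100.3 pooled, with 52.1 and 43.7. Just outside the reproducible list, T26A8.6, between genes, had 90.9 pooled, with 46.5 and 48.7. K07C10.2, between genes, had 90.1 pooled, with 49.0 and 44.6. R08C7.19, in an intron of chat-1 on the opposite strand, had 89.9 pooled, with 30.9 and 72.1. These values come from the measure that made the list and are a description of its edge.

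**Figure D2:**
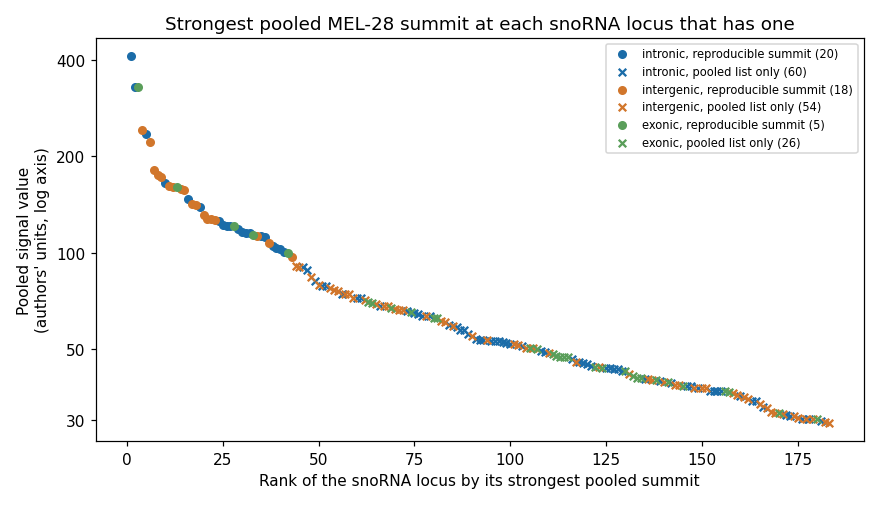
Pooled signal value (y axis, authors' units, log axis) of the strongest summit at each of the 183 snoRNA loci that had one, by rank (x axis). Circles are loci with a reproducible summit, crosses loci in the pooled list only, and colours give the gene context; all 43 circles lie at 97.1 or above and all crosses at 90.9 or below.

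Over all 183 loci with a pooled summit, the strongest summit had a median signal of 53.2 and a range of 29.4 to 412. Its percentile among nuclear pooled peaks had a median of 84.8, with an interquartile range of 58.6 to 97.5, against a median of 51.8 for the strongest summit of genome windows that had one. The replicates ranked the loci alike over the whole range, with lower coefficients within the reproducible loci and within the other loci. Over the 145 loci with a summit in both replicate lists, Spearman's rho between the replicates' signals was 0.656, and Pearson's r of the log2 values 0.739. Within the 43 reproducible loci rho was 0.458, and within the other 102 loci it was 0.203. Each of these sets covers a narrower range of signal than the 145 loci together. The coefficients therefore cannot be compared as measures of agreement between the replicates. These are descriptions across loci that share libraries and a control, and the reproducible list was itself derived from the other lists. The ratio of replicate 1 to replicate 2 signal among the 43 loci ran from 0.481 to 1.62, with a median of 0.963, and 19 of the 43 loci were higher in replicate 1.

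**Figure D3:**
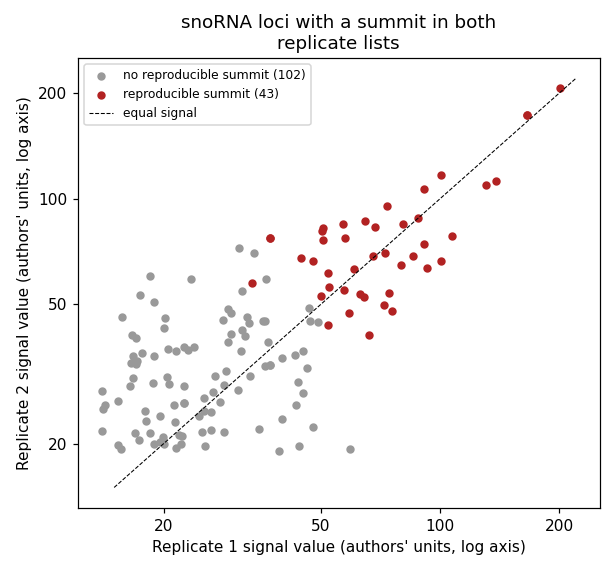
Signal value in replicate 1 (x axis) and replicate 2 (y axis), in the authors' units on log axes, for the 145 snoRNA loci with a summit in both replicate lists. Red points are the 43 reproducible loci, grey points the other 102, and the dashed line marks equal signal; the red points spread along the line and the grey points form a cloud with little order.

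The strongest summits sat just upstream of the snoRNA gene. Among the 43 reproducible loci the summit had a median position of −40 bp from the annotated 5' end, where negative positions are upstream, with an interquartile range of −71.5 to 0 bp and a range of −351 to 422 bp. Taken from the 369 strongest peaks of replicate 2, the median position was −10 bp, and from those of replicate 1 it was −38 bp. The summit was upstream of the gene at 32 of 43 loci, and within 120 bp upstream at 30 (69.8%). At 9 loci it lay inside the gene and at 2 past its 3' end. At the 140 loci with a pooled summit only, 34 (24.3%) had it within 120 bp upstream, 36 further upstream, 25 inside the gene and 45 past the 3' end. The replicates placed their own strongest summits a median of 17 bp apart at the 43 reproducible loci, with 38 of 43 within 100 bp. At the 91 loci of the pooled-only set with a summit in both replicate lists the median distance was 123 bp, and 39 were within 100 bp. All 43 reproducible loci had a pooled signal of 97.1 or above, and all pooled-only loci 90.9 or below. The contrasts between these sets are therefore also contrasts of strong against weak peaks.

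**Figure D4:**
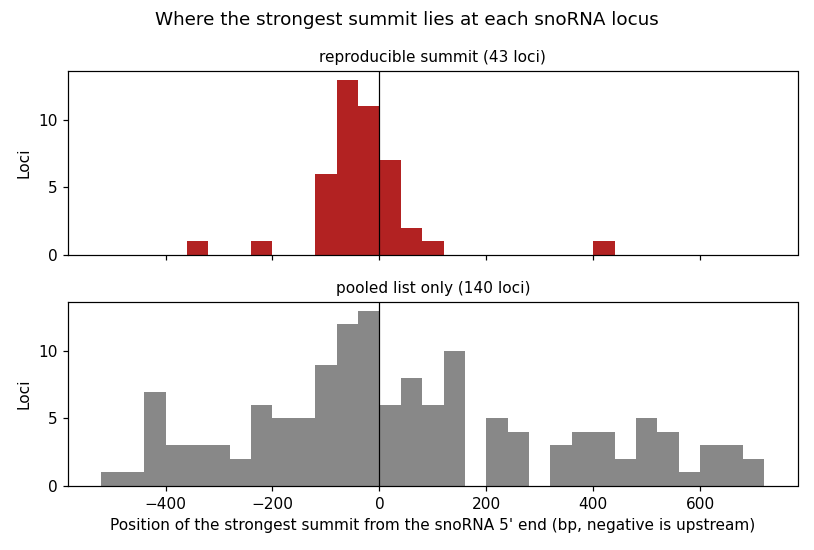
Number of snoRNA loci (y axis) by position of the strongest pooled summit from the snoRNA 5' end (x axis, bp, negative upstream, 40 bp bins). At the 43 reproducible loci (top) 30 summits lay within 120 bp upstream, and at the 140 loci in the pooled list only (bottom) 34 did.

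The other 13 reproducible loci were named after their values were seen. The 9 summits inside the gene lay 1 to 49 bp from its 5' end, at Y23H5B.10, T02E1.9, C27H5.9, F55A11.10, C04G6.12, C16D9.11, D1046.6, C51F7.4 and F55H12.9. Summits more than 120 bp upstream of the gene occurred at Y24D9A.9, at −351 bp from its 5' end, and at M7.15, at −226 bp. The 2 summits past the 3' end were at B0334.12, in an intron of the potassium channel gene twk-5 on the opposite strand, and at C27H5.10 in pdl-1, whose peak is shared with C27H5.9 and lies 8 bp inside the 5' end of the latter.

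Intronic and intergenic snoRNA loci held reproducible summits in shares whose intervals overlapped. Of the 346 genes, 169 lay within an intron of a protein-coding gene, 124 lay outside any protein-coding gene, and 53 touched an exon of one. A reproducible summit was present at 20 intronic loci (11.8%, exact interval 7.38% to 17.7%), 18 intergenic loci (14.5%, 8.84% to 22.0%) and 5 exon-touching loci (9.43%, 3.13% to 20.7%). A pooled summit was present at 80 intronic loci (47.3%), 72 intergenic loci (58.1%) and 31 exon-touching loci (58.5%). The intronic minus intergenic difference was −2.68 percentage points for reproducible and −10.7 for pooled summits. Without replicate 2, from the lists of replicate 1, these were −6.07 and −1.90, and with windows of 1000 bp on each side the pooled difference was −1.42, so its size rests on these choices. The median pooled signal of the reproducible loci was 120 for the intronic and 149 for the intergenic ones, and the highest intronic value of 412 exceeded the highest intergenic value of 242. Within 120 bp upstream of the gene lay 12 of the 20 intronic and 15 of the 18 intergenic reproducible summits.

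The host gene's strand divided the intronic loci unevenly. The host was on the same strand as the snoRNA at 142 of the 169 loci, and on the opposite strand at 27. A reproducible summit was present at 14 of the same-strand loci (9.86%, exact interval 5.5% to 16.0%) and at 6 of the opposite-strand loci (22.2%, 8.62% to 42.3%), and the intervals overlap. The difference of −12.4 percentage points became −1.25 without replicate 2, when the strongest peaks of replicate 1 replaced the reproducible list. Pooled summits were present at 63 (44.4%) and 17 (63.0%) of them. An snoRNA on the opposite strand cannot be spliced out of its host's transcript, and the 6 reproducible loci of this kind were T03F7.8 in cutl-18, B0334.12 in twk-5, C27H5.9 and C27H5.10 in pdl-1, ZK484.9 in the ABC transporter gene haf-9 and C04G6.12 in the MAP kinase gene mpk-2. Of the 142 same-strand genes, the best-bound were in pxn-1, frm-7, pcyt-2.1 and rol-3, described above.

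Some host genes held several snoRNAs. The 169 intronic loci lay in 149 host genes, 16 of which held at least 2 loci and 1 of which, nol-56, held 4. These 16 hosts held 36 loci, of which 10 (27.8%) had a pooled summit and 3 (8.33%) a reproducible one, against 47.3% and 11.8% of all intronic loci. Of these hosts 8 had no locus with a pooled summit. Of the loci in nol-56, which codes for a core protein of box C/D snoRNPs, 1 had a pooled summit and none a reproducible one, and none of the 3 loci in the ribosomal protein gene rpl-6 or the 3 in the topoisomerase gene top-2 had a pooled summit. Ribosomal protein genes hosted 19 intronic loci, of which 7 (36.8%) had a pooled summit and 1 (5.26%), Y24D9A.9 in rpl-7A, a reproducible one. With counts this small the reproducible shares cannot be told from that of all intronic loci. That summit was the one at −351 bp from the snoRNA 5' end. Only frm-7 and pdl-1 held 2 loci with a reproducible summit, in each case from a shared peak.

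The 43 reproducible loci more often carried boxes A and B upstream than the other loci did. The boxes were searched on the gene strand from 150 bases before the 5' end to 20 bases into the gene, with box B starting 20 to 80 bases after box A. Both boxes were found in this arrangement at 13 of the 43 reproducible loci (30.2%), 5 of the 140 loci in the pooled list only (3.57%) and 0 of the 163 loci with no pooled summit. The same arrangement occurred in 0.191% of genome windows of 170 bp, at the 5' ends of 15 of 19973 protein-coding genes and at those of 0 of 129 snRNA genes. It was absent from that stretch at all 612 tRNA genes, whose boxes lie inside the gene. Box B, with or without box A, was present at 17, 17 and 6 loci of the 3 sets, against 3.08% of genome windows, and box A, with or without box B, at 20, 30 and 21 loci, against 11.6%. The letters of both boxes were written after the upstream sequences of the 43 loci had been read, and the loci with no pooled summit were used as the contrast, so these counts describe the loci from which they were drawn. A stricter box B, GTTCNAANC, set down earlier and searched on both strands within 200 bp of the gene, was present at 5, 12 and 14 loci of the 3 sets (11.6%, 8.57% and 8.59%), against 6.65% of genome windows of 530 bp.

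In all, 18 snoRNA loci held boxes A and B. Of these, 13 were among the reproducible loci from which the letters were drawn, all of which have a pooled summit, and the other 5 had a pooled summit as well, so no share is read from them. For the stricter box B, 17 of 31 loci with it (54.8%) and 166 of 315 without it (52.7%) had a pooled summit. Of the 18, 9 were intronic, 8 intergenic and 1 exon-touching. At the 13 reproducible loci box A started at a median of −59 bases and box B at a median of −14 bases from the annotated 5' end, and 11 of the 13 summits lay within 120 bp upstream of the gene. Besides the 6 loci already named, the boxes were present at the reproducible loci Y39G10AR.24 (pooled signal 128), M106.6 in the condensin gene mix-1 (125), F55A11.10 (122), T08B2.13 in the phenylalanyl-tRNA synthetase gene fars-1 (119), Y43F8C.22 (116), F32E10.10 (107) and C04G6.12 (102). The pooled signals of the 5 loci with boxes and no reproducible summit ran from 30.4 at Y59E1B.14 to 58.9 at T10B9.11.

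The split element, the second arrangement, lay mostly at loci outside the reproducible list. It was found in the same stretch at 7 of the 43 reproducible loci (16.3%), 13 of the 140 in the pooled list only (9.29%) and 4 of the 163 without a pooled summit (2.45%), against 0.0778% of genome windows. It was also found upstream of 29 of 129 snRNA genes (22.5%) and 7 of 19973 protein-coding genes. Its position was narrow: at the 24 snoRNA loci it started at −80 to −54 bases from the 5' end, with a median of −60, and at the 29 snRNA genes at −71 to −55 bases, with a median of −59. Of the 24 loci, 20 had a pooled summit, which includes the 7 reproducible loci read to choose the letters, and 12 were intronic and 12 intergenic. The 7 reproducible ones were ZK994.7, Y53F4B.47, Y37E3.20, F59C6.15, C16D9.11, Y74C9A.6 and F47G4.9, so both the highest and the lowest signal of the 43 belonged to this set. The letters of the split element too were chosen after the sequences had been read. Boxes A and B and the split element did not occur together: 42 loci had 1 or the other, of which 20 had a reproducible and 38 a pooled summit. These 20 are among the loci read to choose the letters, so no share is read from the 42. The remaining 304 loci had 23 reproducible (7.57%) and 145 pooled summits (47.7%), so loci without either arrangement were also bound above the 0.403% and 16.9% of genome windows.

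**Figure D5:**
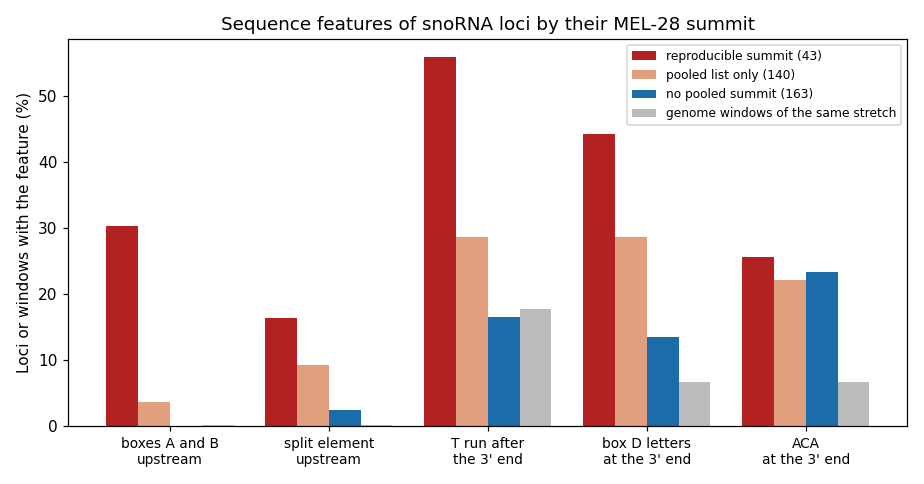
Share of loci with each sequence feature (y axis, percent) for the 43 loci with a reproducible summit, the 140 in the pooled list only and the 163 with no pooled summit, beside genome windows of the same stretch (grey). The shares with boxes A and B, the split element, the T run and the box D letters fall from the first set to the third. ACA is at 22.1% to 25.6% in all 3. The letters of boxes A and B and of the split element were chosen after sequences of the first set had been read. The fall in those shares therefore describes the loci from which the letters were drawn.

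The ends of the snoRNA genes differed as well. A run of at least 5 T within 30 bases after the 3' end, on the gene strand, was present at 24 of the 43 reproducible loci (55.8%), 40 of the 140 in the pooled list only (28.6%) and 27 of the 163 others (16.6%), against 17.7% of genome windows of that stretch. Among the 13 reproducible loci with boxes A and B, 9 had such a T run. Among the 7 with the split element 1 did, at C16D9.11. Most of the 24 reproducible loci with a T run had neither arrangement, so the T run was not particular to loci with the boxes. The box D letters CTGA in the last 20 bases of the gene were present at 19 (44.2%), 40 (28.6%) and 22 (13.5%) loci of the 3 sets, against 6.69% of windows. The box C letters TGATGA in the first 20 bases were present at 7, 5 and 8 loci, against 0.675% of windows. ACA in the last 6 bases, the mark of H/ACA snoRNAs, was present at 11 (25.6%), 31 (22.1%) and 38 (23.3%) loci, against 6.62% of windows. TATAAA in the 100 bases upstream was present at 2, 10 and 10 loci, against 6.24% of windows. These letters, too short to assign a class to a gene, were searched on the gene strand.

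Reproducible loci were also shorter and their upstream stretch richer in G and C. The median gene length was 76 bases (range 62 to 235) at the 43 loci, 133 bases at the 140 loci in the pooled list only and 131 bases at the others. The median GC content of the 200 bases upstream was 46.5%, 42.5% and 40% in the 3 sets. Whether GC content bears on the recovery or mapping of these fragments was not tested.

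The share of loci with a reproducible summit varied between chromosomes, on small counts whose exact intervals mostly overlapped. A reproducible summit was present at 14 of 74 loci on chromosome I (18.9%), 9 of 71 on II (12.7%), 2 of 54 on III (3.70%), 7 of 59 on IV (11.9%), 11 of 55 on V (20%) and 0 of 33 on X. A count of 0 among 33 loci allows a share of up to 10.6% by the exact interval. That interval lay just below the interval of chromosome I (10.7% to 29.7%). The intervals of every other pair of chromosomes overlapped. The X chromosome loci were not without signal: 11 of 33 had a pooled summit, the highest at C34E11.20, with 76.2 pooled, 33.0 in replicate 1 and 31.1 in replicate 2, which is below the lowest reproducible locus. Of the genome windows on X, 0.389% held a reproducible and 17.0% a pooled summit, and of those on the autosomes between 0.265% and 0.574% and between 15.5% and 18.4%. The share of windows with a reproducible summit was the highest on chromosome III, where snoRNA loci had 2 of 54. Worms of mixed sex carry different numbers of X chromosomes, and the signal per chromosome copy was not measured.

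Few snoRNA loci had tRNA or snRNA genes close by. Of the 346 loci, 4 had a tRNA or snRNA gene within 500 bp of the snoRNA gene, and 0 of these were reproducible loci. At 16 of the 43 reproducible loci (37.2%) the summit also lay in the promoter window of a protein-coding gene. That window was taken as 1000 bp upstream to 500 bp downstream of the gene's 5' end. The strongest pooled summit lay in such a window at 46 of the 140 loci in the pooled list only (32.9%). The share of all nuclear peaks in such windows is not given here, so these shares are not read as high or low. Loci whose gene touched such a window had a reproducible summit in 12.8% of 117 cases and the others in 12.2% of 229. Taken the same way, 65 of 612 tRNA loci (10.6%, exact interval 8.29% to 13.3%) and 13 of 129 snRNA loci (10.1%, 5.48% to 16.6%) held a reproducible summit, and both intervals overlap that of the snoRNA loci. Pooled summits were present at 429 tRNA loci (70.1%) and 59 snRNA loci (45.7%).

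Genes for snoRNP proteins and RNA polymerase III held no reproducible summit. Of a list of 12, 8 had a pooled summit in their promoter window, against 28.2% of all 19973 protein-coding genes. A reproducible summit was present at 0 of the 12, against 1.22% of all protein-coding genes. With 12 genes, a count of 0 cannot be told from that share. The box C/D proteins were represented by fib-1, the methyltransferase fibrillarin, with a pooled signal of 62.8 and 31.2 and 28.8 in the replicates, by nol-56 with 63.4 pooled and by nol-58 with 74.7 pooled. snu-13, the fourth core protein, had no pooled summit. Of the H/ACA genes, garr-1 had 52.0, Y48A6B.3 had 49.0 and nola-3 had 51.5 pooled, and dkc-1, the pseudouridine synthase, had no pooled summit. The polymerase III subunit genes rpc-1 and rpc-2 had 34.0 and 37.0 pooled, and the transcription factor genes tbp-1 and brf-1 had no pooled summit. All of these values lie below the 97.1 of the lowest reproducible snoRNA locus. These genes held no summit of the reproducible list, whose lowest nuclear signal was 92.7, so lower values follow in part from that absence.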

How the data were processed

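ChIP-seq peak lists in narrowPeak form were used: 1 list per replicate, 1 from pooled replicates and 1 reproducible list thresholded by IDR, all on ce11, per the labels' protocols and the file headers. The signal value of each peak was deposited by the authors, and no label or header used here names its scale, the peak caller or the aligner. The authors' −log10 q-values were read as deposited and support no statement here. Read depth is unknown. Both replicates share a control, which was not analysed here.

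Summits were taken at 1 base resolution. A locus was a gene of Ensembl release 115 (WBcel235) with 500 bp on each side, and its value the strongest summit in it. Genes came as intronic, exon-touching or intergenic relative to protein-coding genes. Exact 95% intervals are Clopper-Pearson (scipy 1.17.1). Nuclear peaks numbered 17005 pooled, 23774 in replicate 1, 19576 in replicate 2 and 369 reproducible. With 1 group no test between conditions exists, and none was made. Named genes were those at the 15 highest distinct reproducible summits, the 5 highest intronic and intergenic loci, the 3 loci on each side of the edge of the reproducible list, and hosts with at least 2 reproducible loci. The members, lists and rules were chosen with earlier results of these data known, and the boxes A and B and the split element after their sequences had been read. Alternatives were other window widths, overlap in place of summit, nearest-gene assignment, merged windows, stronger peaks, other definitions of host and each replicate alone. The counting was tested on simulated summits.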

Additional observations from a re-analysis of the deposited data

How the results depend on the processing

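Narrow windows changed the counts. With 0 bp on each side, 38 loci had a pooled summit, 9 a reproducible summit and 12 a summit in both replicate lists. With 100 bp, 107 had a pooled summit and 80 a summit in both lists. With 1000 bp, 51 loci had a reproducible summit. The median percentile of the pooled summit was 91.0 with 250 bp. The remaining counts stayed within 1.5 times of those reported. From 1 replicate alone, 188 to 202 loci had a summit. Among the 369 strongest peaks of 1 replicate, 37 to 42 loci did, and the median summit position was −38 to −10 bp, the latter without replicate 1. Without 1 replicate the median percentile was 84.0 to 85.2, and 11 of the loci with boxes A and B had a summit among the strongest peaks either way. The intronic share was below the intergenic share in every alternative run, with a difference of −6.07 to −3.65 percentage points for the strongest peaks of 1 replicate and −10.2 to −1.90 for all peaks of 1 replicate. The same-strand share was below the opposite-strand share, with a difference of −14.5 to −1.25 percentage points, against −12.4 with the reproducible list. The cause of these shifts was not tested. Read depth and the control limit every value and were not examined, since the lists hold no reads.

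No paired analysis was possible because the series has 1 group and no comparison between groups.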
